A study of Mus musculus with 24 samples.

Results

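The synaptic vesicle release machinery was followed as a set of 40 genes, named by symbol, out of the 54235 features in the deposited matrices. The set holds 9 vesicle membrane proteins (Syn1, Syn2, Syn3, Syp, Syngr1, Syngr3, Sv2a, Sv2b, Sv2c), 8 calcium sensors and related C2-domain proteins (Syt1, Syt2, Syt4, Syt7, Syt11, Doc2a, Doc2b, Rph3a) and 10 SNARE proteins and SNARE regulators (Snap25, Vamp1, Vamp2, Stx1a, Stxbp5l, Cplx1, Cplx2, Cplx3, Nsf, Napb). It also holds 3 Rab3 GTPases (Rab3a, Rab3b, Rab3c) and 10 active zone proteins (Rims1, Rims2, Rims3, Unc13a, Unc13b, Unc13c, Bsn, Pclo, Rimbp2, Erc2). All 40 symbols were found, and all 40 are protein-coding in GENCODE M21. The study took single cells from mouse brain after a forelimb reaching task and read them with a 3′ droplet assay. Primary motor cortex came from Fos-CreER::Ai9 mice, and dorsal striatum from Arc-CreER::Ai9 mice. In both lines a tamoxifen-dependent Cre under an activity-regulated gene turns on a red reporter in cells active when the drug is given. Region and driver line therefore cannot be told apart.

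Early learning groups were trained for 2 days and late learning groups for 8 days, and controls were not trained. All groups received 4-hydroxytamoxifen, all carry a CreER driver and the Ai9 reporter, and tissue was taken 3 days after labelling. Each library is 1 hemisphere pooled from 2 mice, which the labels give as a male and a female. The 2 hemispheres of the same mice were added up as 1 pool, so each region and stage has 2 pools, 12 in all, and each region has 6. The protocol names removal of dead cells and no sort for reporter-positive cells, so the values below are of all cells of a type and not of the labelled neurons.

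Neurons release transmitter when vesicles fuse with the membrane of the axon terminal. The vesicle SNARE protein synaptobrevin (Vamp1, Vamp2) pairs with syntaxin (Stx1a) and Snap25 on the plasma membrane, complexins hold and help this complex, and synaptotagmins trigger fusion when calcium enters. Rim, Munc13 (Unc13a, Unc13b, Unc13c), Bassoon, Piccolo and Rim-binding protein make up the active zone that docks and primes vesicles, Rab3 on the vesicle binds Rim, and Nsf with its SNAP adaptor (Napb) takes spent SNARE complexes apart.

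The RE1 element, to which the repressor REST binds in cells that are not neurons, is a known feature of neuronal promoters. Promoter windows of 300 bases, from 250 bases before to 50 after the start site, were at hand for 31 of the 40 members from RefSeq on GRCm38.p6. They were searched on both strands for TTCAGCACC and GACAGCGCC, the left and the right part of RE1, for the cyclic AMP response element TGACGTCA, and for its core TGACG, which lies within it. The left part was in 0.371% of all 32851 promoter windows, or in windows of 0.433% of all 27025 genes, and in those of 2 of the 31 members, Syn1 and Unc13a. The right part was in windows of 0.392% of all genes (0.326% of windows) and, of the members, in that of Unc13a, 4 bases after the start. The full response element was in windows of 2.03% of all genes (1.79% of windows) and, of the members, in that of Syn1, 159 bases before the start. Its core was in windows of 23.0% of all genes (20.8% of windows) and in 7 of 31 members (Cplx1, Rab3a, Rab3b, Stx1a, Syn1, Syt2, Unc13a), close to the share over all genes. The pair of windows with an RE1 part are shown, with the left part in capitals. Both genes were lower in every glial class compared below, as were most other members, and a link to the motif was not tested. That of Syn1 is at chrX:20920869-20921168, minus strand, and that of Unc13a at chr8:71671708-71672007, minus strand, where the left part is on the opposite strand to the gene and starts 22 bases after the start site.
Syn1: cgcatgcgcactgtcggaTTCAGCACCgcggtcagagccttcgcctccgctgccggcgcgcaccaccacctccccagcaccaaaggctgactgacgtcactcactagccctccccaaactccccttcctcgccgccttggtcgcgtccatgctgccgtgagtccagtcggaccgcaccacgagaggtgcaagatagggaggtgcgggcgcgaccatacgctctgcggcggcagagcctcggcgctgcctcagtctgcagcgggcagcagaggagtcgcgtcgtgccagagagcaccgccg
Unc13a: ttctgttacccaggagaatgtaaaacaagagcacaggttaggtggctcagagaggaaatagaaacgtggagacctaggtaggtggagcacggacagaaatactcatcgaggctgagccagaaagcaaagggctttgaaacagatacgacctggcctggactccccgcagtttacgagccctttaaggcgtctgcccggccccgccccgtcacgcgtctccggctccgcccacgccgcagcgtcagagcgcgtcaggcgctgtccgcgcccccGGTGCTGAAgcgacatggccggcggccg
A match describes the letters only, and windows of Doc2a, Doc2b, Rims2, Snap25, Syn3, Syngr3, Syt4, Syt7 and Vamp2 were not used here.

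Count matrices of 23 of the 24 libraries were analysed. Striatal control replicate 1 is represented by its left hemisphere alone, and its other library was not analysed here. They held 127901 cell barcodes, of which 99627 were kept after filters on genes, UMIs and mitochondrial share and after 4088 likely doublets were removed. Total counts per library ran from 5260446 to 30470621 UMIs, and kept cells per library from 467 to 6685. By the barcodes they shared, the pools were put into 2 sets, replicate 1 of control and of late learning in each region (4 pools) against the other 8. Pairs of libraries within the first set shared a median of 1.32 barcodes per 1e6 pairs (0.789 to 1.75), within the second 0.254 (0.036 to 0.565) and between them 0.0206 (0 to 0.437). The last pair of ranges overlapped, so only the first set stood apart in every pair. The labels name kits v2 or v3 without saying which library had which, so this split stands in for the kit below. Motor cortex control replicate 1 held 5 Xist UMIs (0.204 CPM) against 317 to 656 CPM in the other cortical pools, although its label names a female mouse.

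Cells were clustered without the 40 members and classes were named from fixed markers, so each name means "like" the cell it names. Neuron clusters whose class was unclear were placed by fixed markers of neuron types. Among them was a striatal cluster of 2367 cells with interneuron as its best class. It was placed with spiny projection neurons by markers of their eccentric type (Otof, Pcdh8, Tshz1, Casz1 and Cacng5). UMIs of a class were summed per pool. Where 3 levels are given for a gene, they are the lowest, the median and the highest pool, in CPM, the UMIs of the gene per 1e6 UMIs of that class in that pool. Levels are not compared between genes, since a 3′ count is not scaled for how well each gene is captured. Differences are log2 changes ± standard error from edgeR's quasi-likelihood test with the pool as a block, with Benjamini-Hochberg adjustment over all genes tested. "Higher" and "lower" are used for an adjusted p under 0.05. Marker genes were higher in their own class in nearly all cases. Since the classes were named from these markers, this describes them and does not test their names. The exceptions were the cortical neuroblast-like class (7 of 10 markers higher, 2 at 0), striatal fibroblast-like cells (6 of 7) and striatal interneuron-like cells (13 of 15).

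Most release genes were far lower in glia than in neurons. In motor cortex 38 members were tested against the 17629 glutamatergic neuron-like cells. In microglia-like cells 37 were lower and 1 higher, where 46% of all 13657 genes tested were lower and 39.4% higher. In astrocyte-like cells 35 were lower and 1 higher, against 43.3% and 33.8% of all genes, and in oligodendrocyte precursor-like cells 35 were lower and 2 higher, against 41.1% and 36.5%. In oligodendrocyte-like cells, which only 2 pools held in number, 34 were lower and 1 higher, against 29.6% and 17%. Median log2 changes over the 38 members were -4.73 in astrocyte-like cells, -3.20 in precursors, -4.05 in oligodendrocyte-like cells and -4.51 in microglia-like cells. Over all genes tested the medians were -0.23, -0.07, -0.53 and -0.18.

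The striatal counts were alike. Against the 21717 spiny projection neuron-like cells, 38 of 40 members were lower and 1 higher in microglia-like cells (44.3% lower and 35% higher over all genes), and 36 were lower and 2 higher in astrocyte-like cells (39.1% and 33.8%). Precursors had 34 lower and 1 higher (37.4% and 32.4%), and oligodendrocyte-like cells, from 4 pools, had 34 lower and 1 higher (32.6% and 15.3%). The members' medians were -4.65, -3.17, -2.40 and -3.48 in that order. The lower share exceeded the background share in all 8 glial comparisons, and the higher share lay below it in all 8.

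**Figure D1:**
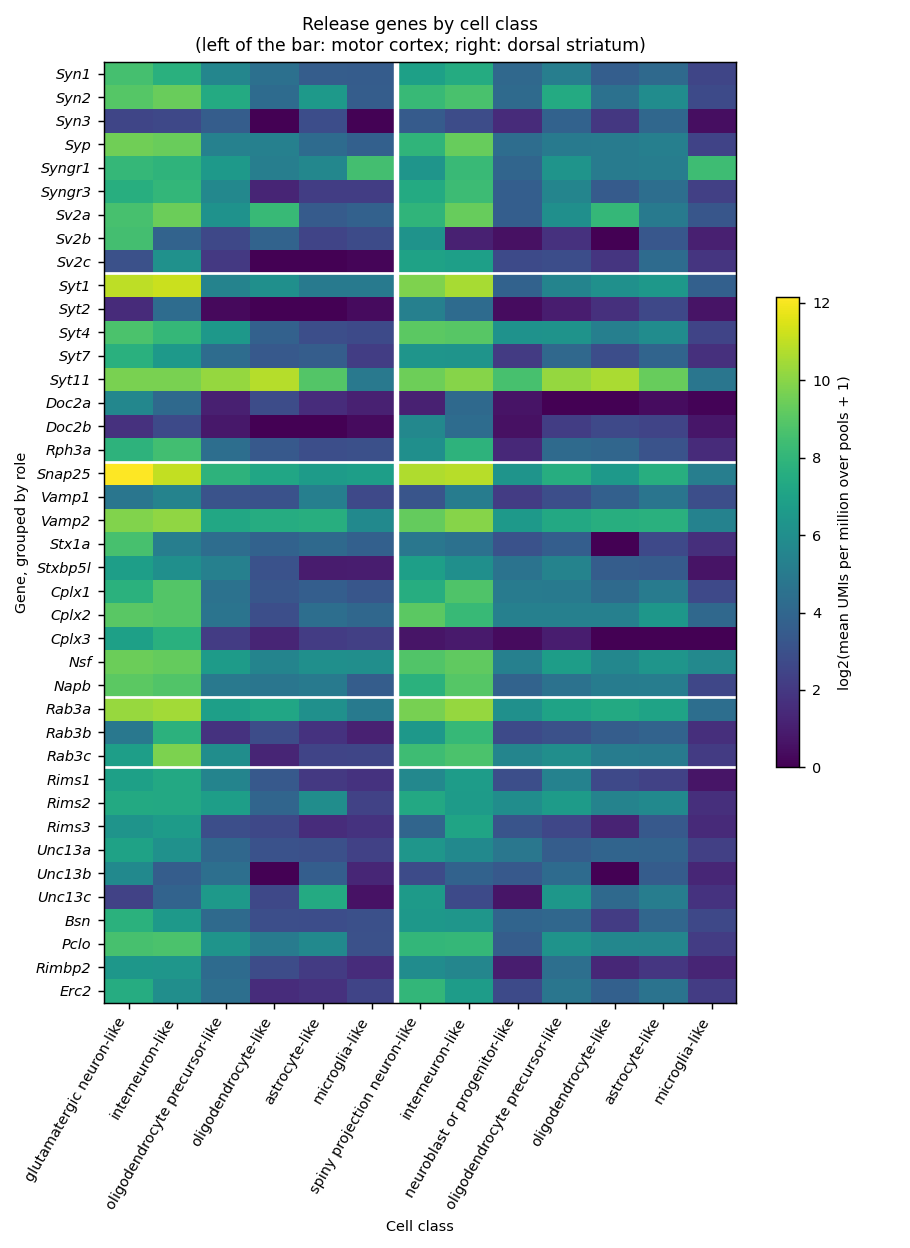
Mean level of each of the 40 genes, as log2(CPM + 1) over pools, in 6 classes of motor cortex and 7 of dorsal striatum. Genes are rows grouped by role and classes are columns, and a reader should see high levels in the neuron columns and low ones in glia, apart from Syt11, Syngr1, Unc13c and a few others.

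Named examples show the size of the gap. Stxbp5l, the tomosyn-2 gene whose protein holds back SNARE pairing, was at 59.7, 117 and 152 CPM in glutamatergic neuron-like cells and 0, 1.21 and 1.56 CPM in microglia-like cells, without overlap (-6.06 ± 0.23, adjusted p = 3.58e-40 by edgeR). Syt1, the main calcium sensor of fast release, was at 1661, 1942 and 2406 CPM in these neurons and 18.3, 32.0 and 45.2 CPM in astrocyte-like cells (-6.08 ± 0.26), and no pool overlapped. In dorsal striatum Syt1 was at 829, 869.5 and 1008 CPM in the spiny projection class and 29.0, 47.1 and 307 CPM in astrocyte-like cells (-3.97 ± 0.39). Every pool of the neurons lay above every astrocyte pool there too.

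Other members with the largest glial gaps were Syt4, Erc2 and Sv2b. Syt4, a synaptotagmin that is no fast calcium sensor, differed by -5.60 ± 0.19 in cortical and -6.12 ± 0.44 in striatal microglia-like cells. Erc2, a CAST active zone scaffold, differed by -5.67 ± 0.26 in cortical and -3.88 ± 0.27 in striatal astrocyte-like cells. Rims1, which links Rab3 to the active zone, differed by -3.77 ± 0.28 and Rimbp2, a Rim-binding protein, by -4.58 ± 0.30 in the striatal ones. Sv2b, a vesicle glycoprotein, differed by -6.48 ± 0.21 in cortical and -5.70 ± 0.35 in striatal precursors. In cortical precursors Cplx3 differed by -5.59 ± 0.22, Doc2a by -5.45 ± 0.23, Cplx2 by -4.73 ± 0.19 and Stx1a by -4.70 ± 0.15. In striatal precursors Syt2 differed by -5.49 ± 0.43, Sv2c by -4.91 ± 0.35, Doc2b by -4.44 ± 0.31 and Cplx2 by -4.43 ± 0.31.

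Some glial totals held no UMI of a member, so only a bound can be given, from a floor of 3 UMIs over the class. Sv2c had 0 UMIs in cortical astrocyte-like cells and was at least 13.4-fold lower than in glutamatergic neuron-like cells. Sv2b had 0 UMIs in striatal oligodendrocyte-like cells (at least 14.6-fold lower than in spiny projection neuron-like cells), Stx1a likewise (at least 4.86-fold), and Unc13b in cortical ones (at least 11.1-fold). Unc13b in striatal oligodendrocyte-like cells (at least 1.15-fold) and Sv2c in cortical ones (at least 1.46-fold) had floors too high to say more.

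A few members went the other way. Unc13c, a Munc13 known mainly from cerebellum, was at 2.53, 3.99 and 6.91 CPM in cortical glutamatergic neuron-like cells and at 133, 172 and 222 CPM in astrocyte-like cells (5.27 ± 0.13, adjusted p = 3.33e-51, edgeR). It was at 64.3, 94.8 and 118 CPM in precursors (4.10 ± 0.12), and both glial classes lay above the neurons in every pool. In striatum the order was reversed, with 65.8, 101 and 119.9 CPM in the spiny projection class and 19.6, 32.6 and 47.4 CPM in astrocyte-like cells (-1.63 ± 0.15). Syngr1, a tetraspan vesicle protein of the synaptogyrin family, was at 273, 332 and 500.2 CPM in cortical and 244, 289.6 and 462 CPM in striatal microglia-like cells. By the fitted change, Syngr1 was higher there than in the projection neurons of the region (1.17 ± 0.13 and 2.73 ± 0.18). Syt11, a synaptotagmin linked to endocytosis and phagocytosis, was higher in oligodendrocyte-like cells of both regions (1.48 ± 0.20 and 0.95 ± 0.32).

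Further glial excesses were seen for Vamp1 in striatal astrocyte-like cells (1.62 ± 0.21) and for Syn3 in cortical precursors (0.74 ± 0.22). Unc13b was higher in striatal astrocyte-like cells (0.73 ± 0.23) and precursors (1.33 ± 0.22). Sv2a was not called in oligodendrocyte-like cells, with 97.0, 285 and 406 CPM over 4 striatal pools against 173, 271 and 299.9 CPM in the spiny projection class, and these ranges overlapped. Members that were neither called nor at the floor in a class include Vamp1 in cortical astrocyte-like cells, at 23.5, 38.2 and 49.1 CPM against 17.1, 27.7 and 32.7 CPM in the neurons.

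Free RNA from broken neurons can enter any droplet. For this reason 9 neuron genes of each region that are no members (such as Slc17a7 in cortex and Ppp1r1b in striatum) were read the same way. Their median level in glia, as a percent of that in projection neurons, stands here beside the members' median. In motor cortex these were 2.64% against 3.93% in astrocyte-like cells, 2.33% against 2.78% in microglia-like cells and 2.54% against 14.5% in precursors. In dorsal striatum they were 11.6% against 15.7%, 1.18% against 2.42% and 6.77% against 24.1%. In astrocyte-like cells of the striatum the summed neuron genes ran from 5.09% to 38.3% over pools. In oligodendrocyte-like cells they were 4.26% against 4.88% in motor cortex and 4.18% against 9.74% in striatum. The members' median was thus above that of the neuron genes in all 8, by little in cortical astrocyte-, microglia- and oligodendrocyte-like cells and by most in precursors. Of the 40 members, 5 in cortical and 17 in striatal astrocyte-like cells were above the highest of the 9 neuron genes. In microglia-like cells 6 and 18 were, in precursors 11 and 22 and in oligodendrocyte-like cells 16 and 22. That highest gene was at 36.3% in cortical and 16.7% in striatal astrocyte-like cells and at 31.9% and 19.5% in precursors. Counts of the regions thus rest on unlike marks. At or below the median of the neuron genes were 13 cortical and 10 striatal members in astrocyte-like cells and 14 and 4 in microglia-like cells. In precursors these were 3 and 5, and in oligodendrocyte-like cells 19 and 8. Slc17a7 and Ppp1r1b were also among the markers that named the classes, while the members were kept out of the clustering. The medians are thus not of genes treated alike. The part of free RNA in each glial level was not tested.

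Interneurons and projection neurons differed in both directions, member by member. In motor cortex, 13 of 38 members were higher and 13 lower in the 4405 interneuron-like cells than in glutamatergic neuron-like cells, against 27.5% and 30.6% of all genes, so the members differed about as often as other genes. In dorsal striatum 19 of 40 were higher and 10 lower in interneuron-like than in spiny projection neuron-like cells, against 33.1% and 31.1%. Of the vesicle membrane proteins there, 6 of 9 were higher and 2 lower. Of the 3 Rab3 genes in motor cortex 2 were higher and none lower.

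Sv2b had the widest gap between these neuron classes in both regions. It was at 354, 369 and 395 CPM in glutamatergic and 9.12, 12.2 and 23.6 CPM in cortical interneuron-like cells (-4.93 ± 0.16, adjusted p = 2.58e-43, edgeR), and at 48.3, 78.2 and 93.3 and 0.428, 0.900 and 2.84 CPM in spiny projection and striatal interneuron-like cells (-5.97 ± 0.28). Projection neurons were above interneurons in every pool of both regions. Stx1a, the syntaxin of the release SNARE complex, was at 315, 412 and 438 CPM in glutamatergic and 27.7, 34.1 and 43.2 CPM in cortical interneuron-like cells (-3.58 ± 0.13), again without overlap. In striatum it was at 22.4, 27.9 and 31.5 and 18.1, 21.6 and 25.3 CPM, and was not called, though it was lower when 4 sub-clusters led by markers of another class were left out (-0.55 ± 0.14, adjusted p = 0.000273, edgeR). Sv2b then differed by -7.42 ± 0.34 in striatum, and by -7.53 ± 0.36 without the wider set of sub-clusters described below. Unc13b was lower in cortical interneurons (-2.41 ± 0.10) and higher in striatal ones (1.20 ± 0.18).

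Higher in cortical interneuron-like cells were Sv2c (3.18 ± 0.13), Rab3b (2.89 ± 0.12) and Rab3c (2.87 ± 0.13). Rab3c was at 514, 936 and 1058 CPM there and at 86.3, 118 and 128 CPM in glutamatergic neuron-like cells. In striatal interneuron-like cells Doc2a, a calcium sensor of spontaneous and asynchronous release, was at 12.8, 16.2 and 21.0 CPM against 0.883, 1.12 and 1.41 CPM (3.79 ± 0.17). Rims3, a short Rim, was at 113, 134 and 168 against 12.0, 14.6 and 17.7 CPM (3.22 ± 0.13), and neither gene's ranges overlapped. Vamp1 (2.06 ± 0.17) and Syngr1 (1.93 ± 0.17) were also higher, and Unc13c was lower, at 4.06, 5.74 and 7.17 CPM (-4.07 ± 0.17).

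Neuron types within a class were compared next, each type against the mean of the other named types of its class, with 40 members tested among glutamatergic types, 39 among cortical interneurons and among spiny neurons, and 35 among striatal interneurons. Layer 6b-like neurons (940 cells) stood out with 26 members higher and 13 lower, against 29.9% and 26% of all genes. They had 7 of 8 calcium sensors, 7 of 9 vesicle membrane proteins and all 3 Rab3 genes higher. The other roles were divided, with Rims3, Unc13a, Unc13b, Unc13c and Bsn lower at the active zone. Among SNARE genes and regulators Snap25, Vamp1, Stx1a, Stxbp5l and Cplx2 were lower. Layer 2/3-like neurons had 14 higher and 21 lower (31.6% and 32%) and layer 4/5-like neurons 13 and 19 (30.9% and 30.8%), both with the excess on the lower side. In the latter, 7 of 10 active zone genes were higher and 7 of 9 vesicle membrane genes lower. Layer 6 corticothalamic-like neurons had 19 and 19 (29.9% and 21.5%), layer 6 intratelencephalic-like neurons 16 and 15 (27.3% and 20.8%) and near-projecting-like neurons 16 and 15 (29.6% and 29.1%). Of the near-projecting type's active zone genes 6 of 10 were lower.

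Among cortical interneurons, Vip-like cells had 6 members higher and 24 lower, against 21.4% and 19.1% of all genes, with 7 of 8 vesicle membrane genes and 6 of 8 calcium sensors lower. Lamp5-like cells had 17 higher and 10 lower (24.1% and 21.9%), Sst-like cells 16 and 7 (20.8% and 16.2%) and Pvalb-like cells, from 5 pools and 211 cells, 13 and 16 (17.9% and 18.7%). In striatum, eccentric spiny projection neuron-like cells had 21 higher and 9 lower (25.4% and 27.5%), D1-like cells 14 and 12 (22.5% and 20.5%) and D2-like cells 8 and 18 (22.7% and 17.2%). Cholinergic interneuron-like cells had 19 and 11 (25.6% and 27.8%), Pthlh or Pvalb interneuron-like cells 13 and 17 (27.8% and 26.9%) and Sst or Npy interneuron-like cells 13 and 18 (28% and 22.9%). Layer 5 extratelencephalic-like neurons (81 cells) had no pool with 20 cells and give no result.

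Some sub-clusters carried their type's markers but had more markers of another class than of their own among their 10 leading genes. There were 16, and they held 357 of the 503 Sst-like, 556 of the 1333 Lamp5-like, 275 of the 949 Vip-like and 36 of the 211 Pvalb-like cells, each with 1 such marker. Without all 16, 37 members were tested among cortical interneurons. Lamp5-like cells then had 14 higher and 9 lower (21% and 17.8% of all genes), Sst-like cells 14 and 7 (16.8% and 13.3%), Vip-like cells 8 and 20 (17.7% and 14.5%) and Pvalb-like cells 10 and 14 (16% and 15.9%). Layer 6b-like neurons had 25 of 39 higher and 13 lower (29.4% and 26.3%). In spiny neurons D1-like cells had 14 and 7 of 38 (16.9% and 14.5%), eccentric cells 17 and 11 (23% and 24.1%) and D2-like cells 9 and 17 (19.9% and 16.3%). Among single values given below, some log2 differences moved by over 1.5 times but kept their direction and call. These were Sv2c in Lamp5-like (7.54), Vip-like (-3.85) and layer 4/5-like cells (-4.67), Syt2 in Pvalb-like cells (6.57) and Sv2b in Sst-like cells (3.22). Rimbp2 in Vip-like cells (-3.02) and Rab3b in D2-like cells (-2.53) were the others. Of those that moved as much, Cplx3 in Sst-like cells lost its call. Cplx2 in Lamp5-like cells and Unc13c in cortical interneuron-like cells turned, as given below.

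**Figure D2:**
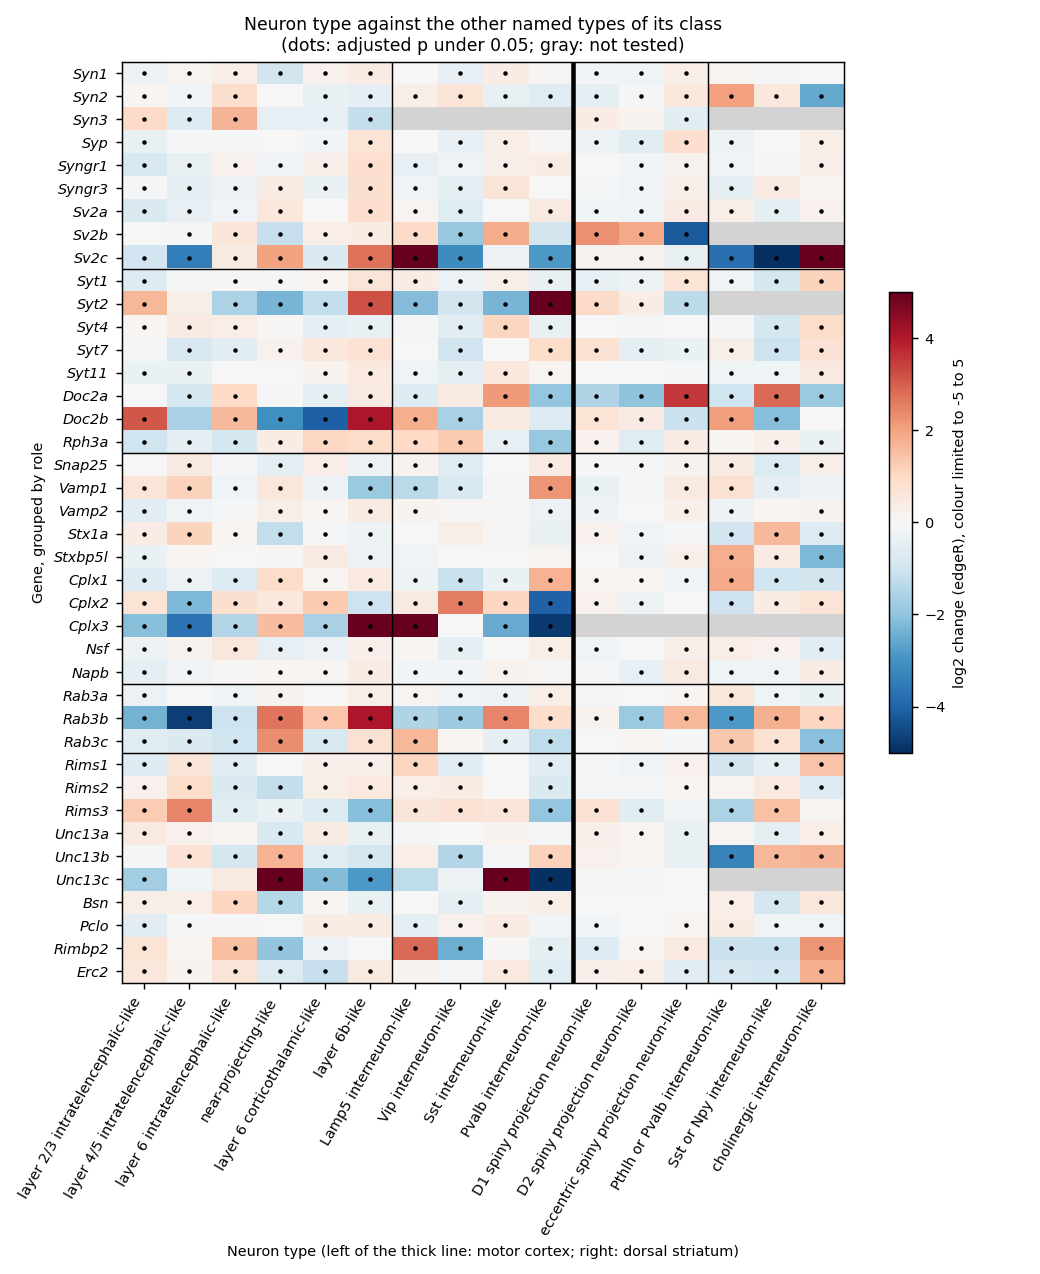
Log2 change of each gene in each of 16 neuron types against the other named types of its class, with colour limited to -5 to 5, dots where the adjusted p was under 0.05 and gray where a gene was not tested. A reader should see strong colour in a few rows (Cplx3, Sv2c, Unc13c, Rab3b, Syt2) and pale rows for Napb, Nsf, Pclo, Rab3a, Syt11 and Vamp2.

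The spread of a gene over types differed greatly from member to member. On log2(CPM + 1) of the type means, the range from lowest to highest type had a median of 2.15 over members in motor cortex (from 0.62 for Napb to 9.53) and 2.09 in dorsal striatum (from 0.50 for Pclo to 8.26). Set against the other types of its own class, the largest log2 difference of any type was smallest for 6 members, at 0.48 for Napb, 0.53 for Vamp2 and for Syt11, 0.55 for Rab3a, 0.56 for Nsf and 0.57 for Pclo. Over all 6 striatal types, which span both classes, 4 of these had ranges under 1, and Napb and Rab3a had wider ones. Napb ran from 188 CPM in D2-like to 626.7 CPM in cholinergic cells (a range of 1.73) and Rab3a from 778 CPM in D2-like to 1631 CPM in Pthlh or Pvalb-like cells (1.07), as means over pools.

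Among vesicle membrane proteins, the SV2 family divided the neuron types. Sv2a was found in all, from 169, 251 and 274 CPM in D2-like cells and 223, 288 and 327 CPM in layer 2/3-like neurons to 696, 1009 and 1182 CPM in Pvalb-like cells. Sv2b was at 435, 462 and 489.7 CPM in layer 6 intratelencephalic-like neurons and at 1.15, 2.91 and 10.7 CPM in Vip-like cells, which were low even among interneurons (-1.90 ± 0.32), while Sst-like cells were higher (1.84 ± 0.21). In striatum Sv2b was at 60.1, 103 and 112 CPM in D1-like, 47.7, 77.5 and 98.8 in D2-like and 0.852, 4.31 and 9.03 CPM in eccentric cells. The eccentric type was below both others in every pool (-4.20 ± 0.13, adjusted p = 1.67e-26, edgeR). The D1 and D2 types were each above the mean of the rest (2.29 ± 0.08 and 1.91 ± 0.09).

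Sv2c reached its highest levels in cholinergic interneuron-like cells, at 420.2, 547 and 648 CPM, against 0, 0.786 and 2.13 CPM in Sst or Npy-like and 0, 1.42 and 4.49 CPM in Pthlh or Pvalb-like cells. The cholinergic pools were far above both (8.75 ± 0.15, adjusted p = 1.27e-52, edgeR). The other striatal interneuron types were lower than the mean of the rest (-4.997 ± 0.63 and -3.75 ± 0.67). Spiny projection neuron-like cells lay between, at 115, 127 and 136 CPM. In cortex, Lamp5-like cells led with 141, 199 and 235 CPM (6.30 ± 0.14). Layer 6b-like neurons had 22.6, 28.6 and 39.6 CPM (2.70 ± 0.14) and near-projecting-like neurons 12.1, 19.4 and 29.8 CPM (2.00 ± 0.18). Layer 4/5-like (-3.46 ± 0.28) and Vip-like cells (-3.14 ± 0.64) were lower, and Pvalb-like cells held 3 UMIs in all.

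Of the synapsins, which tether vesicles to each other in the reserve pool, Syn2 split the striatal interneurons. It was at 646, 748 and 843 CPM in Pthlh or Pvalb-like cells (2.04 ± 0.07) and 67.5, 88.0 and 125 CPM in cholinergic ones (-2.57 ± 0.09), without overlap. Syn3 was highest among glutamatergic types in layer 6 intratelencephalic-like neurons, at 6.23, 11.6 and 14.6 CPM (1.68 ± 0.14). Syp, synaptophysin, a major vesicle protein, was at 278, 446 and 519 CPM in eccentric cells (0.84 ± 0.04) and 156, 212 and 237 CPM in D2-like cells (-0.54 ± 0.04), with eccentric pools all above D2 pools.

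Among calcium sensors, Syt1 was present in every neuron type, from 749.6, 790.5 and 901 CPM in D1-like to 2788, 3010.1 and 3437 CPM in cholinergic cells. Syt2, a fast sensor used by synapses that fire at high rates, was concentrated in Pvalb-like cells, at 96.6, 205 and 265 CPM over 5 pools. Lamp5-, Sst- and Vip-like cells had 2.53, 3.06 and 4.67, 0, 2.44 and 9.01 and 1.99, 6.12 and 11.2 CPM, all below the lowest Pvalb-like pool. The difference was 5.43 ± 0.18 (adjusted p = 2.86e-36, edgeR). In striatum the higher Syt2 levels were in D1-like (37.3, 47.2 and 56.4 CPM, 0.95 ± 0.06) and D2-like cells (23.6, 36.4 and 45.4 CPM), and eccentric cells were lower (14.7, 16.8 and 22.2 CPM, -1.33 ± 0.10). Among glutamatergic types Syt2 was low throughout, with 2.73, 6.20 and 9.58 CPM in layer 6b-like neurons (3.20 ± 0.29).

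The Doc2 pair, soluble sensors with high calcium affinity, differed in where they were high, though both were higher in layer 6b-like and layer 6 intratelencephalic-like neurons. Doc2b was at 5.36, 8.66 and 13.4 CPM in layer 6b-like (4.04 ± 0.28) and 3.49, 5.93 and 7.21 CPM in layer 2/3-like neurons (3.11 ± 0.25), while layer 6 corticothalamic-like cells held 2 UMIs and near-projecting ones 1. In layer 6 intratelencephalic-like neurons it differed by 1.63 ± 0.33. Its highest levels were in D1-like cells, at 51.6, 54.2 and 70.5 CPM (0.67 ± 0.05). It was also higher in Lamp5-like cells (1.83 ± 0.28) and in Pthlh or Pvalb-like cells of the striatum, at 30.6, 39.9 and 70.8 CPM (2.10 ± 0.19), and lower in eccentric cells (-1.07 ± 0.08). Doc2a had its highest levels in layer 6 intratelencephalic-like neurons, at 57.7, 79.1 and 87.6 CPM (0.99 ± 0.06), and differed by 0.46 ± 0.08 in layer 6b-like ones. It was at 18.5, 27.6 and 34.0 CPM in Sst or Npy-like cells (2.82 ± 0.23) and 23.7, 36.9 and 54.2 CPM in cortical Sst-like cells (2.14 ± 0.18). In eccentric cells it was at 4.44, 5.64 and 10.2 CPM (3.53 ± 0.27), above D1-like (0.371, 0.617 and 0.840) and D2-like cells (0.117, 0.522 and 0.648 CPM) in every pool. When a D1-like sub-cluster of 1654 cells and an eccentric one of 712, each with 2 markers of another class among its leading genes, were both left out, Doc2a was not tested among spiny types. Syt7, a slower sensor, was at 76.1, 109 and 126 CPM in D1-like cells (0.76 ± 0.04) and 39.2, 62.7 and 70.5 CPM in D2-like cells (-0.44 ± 0.05, and not called without the 16 sub-clusters, at -0.06 ± 0.09).

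The complexins divided the neuron types. Cplx3, known from ribbon synapses of the retina, was at 1253, 1434 and 1776 CPM in layer 6b-like neurons (7.39 ± 0.06, adjusted p = 1.82e-75, edgeR) and at 456, 569 and 820.4 CPM in Lamp5-like interneurons (7.27 ± 0.12, adjusted p = 1.97e-55). Among the other glutamatergic types the highest was near-projecting, at 33.6, 53.5 and 91.1 CPM (1.54 ± 0.16), and the lowest layer 4/5-like, at 1.68, 2.43 and 4.90 CPM (-3.69 ± 0.24). Layer 2/3-like (-2.13 ± 0.19), layer 6 corticothalamic-like (-1.63 ± 0.17) and layer 6 intratelencephalic-like neurons (-1.47 ± 0.19) were lower too. Every layer 6b-like pool was above every pool of those types, as was every Lamp5-like pool above the other interneurons. Sst-like cells had 0.841, 2.12 and 18.8 CPM (-2.50 ± 0.73, and not called without the 16 sub-clusters, at -0.79 ± 0.98) and Pvalb-like cells 2 UMIs in all. In dorsal striatum Cplx3 was near 0 in all types.

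Cplx1 and Cplx2 split the inhibitory types. Pvalb-like cells had 994, 1090.4 and 1789.9 CPM of Cplx1 (1.74 ± 0.06) and 9.38, 19.05 and 66.0 CPM of Cplx2 (-4.06 ± 0.15, adjusted p = 1.79e-33, edgeR), while Vip-like cells had 225, 283 and 361 CPM of Cplx1 (-1.13 ± 0.06) and 799, 841 and 984 CPM of Cplx2 (2.56 ± 0.07). For either gene the pools of these types did not overlap. Pthlh or Pvalb-like cells of the striatum had the same pairing, with 708, 837 and 1197 CPM of Cplx1 (1.91 ± 0.07) and 67.4, 130.2 and 174 CPM of Cplx2 (-1.05 ± 0.10). Among glutamatergic types Cplx2 was at 638, 822 and 1068 CPM in layer 6 corticothalamic-like (1.30 ± 0.04) and 82.1, 119.7 and 137 CPM in layer 4/5-like neurons (-2.24 ± 0.05), again apart in every pool.

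**Figure D3:**
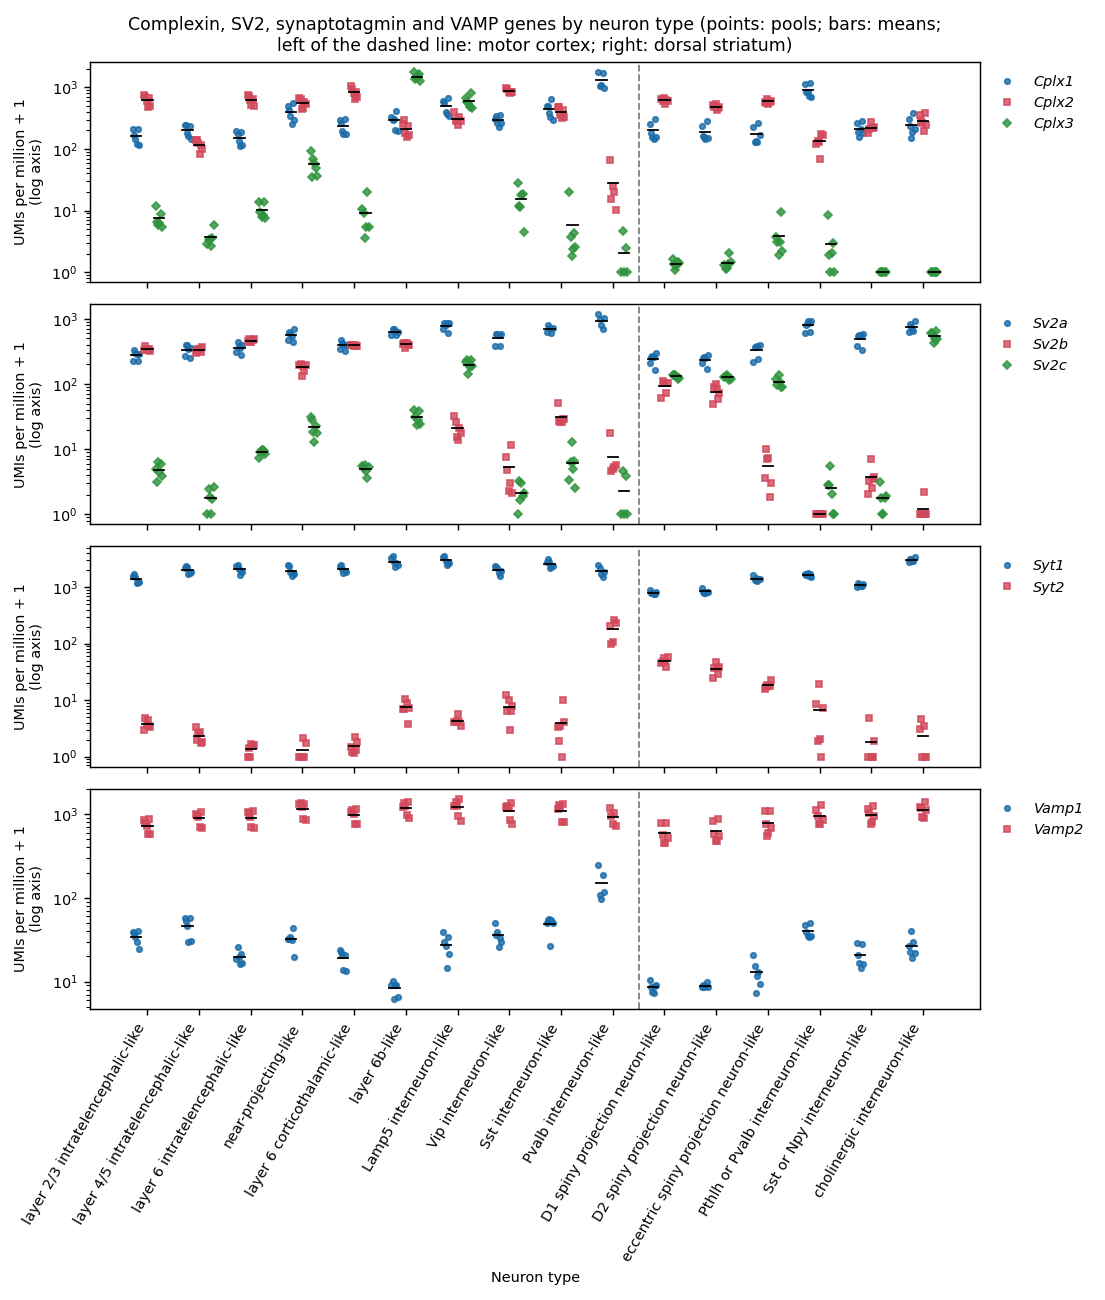
Level of the complexins, SV2 proteins, Syt1, Syt2, Vamp1 and Vamp2 in 16 neuron types, as CPM + 1 on a log axis, with points for pools and bars for means and a dashed line between regions. A reader should see the highest Cplx3 at layer 6b and Lamp5, the highest Syt2 at Pvalb and Sv2c at the cholinergic and Lamp5 types, with Vamp2 in a narrow band and Syt1 present in every type but lowest in D1 and highest in cholinergic cells.

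Of the SNAREs themselves, Vamp2 varied little, from 451, 533 and 787 CPM in D1-like to 831, 1248 and 1529 CPM in Lamp5-like cells. Vamp1 was highest in Pvalb-like cells, at 95.2, 117 and 243 CPM (2.19 ± 0.13), and among glutamatergic types in layer 4/5-like neurons, at 28.5, 48.8 and 56.1 CPM (1.14 ± 0.07). In layer 6b-like neurons it was at 5.22, 8.08 and 9.22 CPM (-1.84 ± 0.13). In striatum it was at 32.7, 36.4 and 49.0 CPM in Pthlh or Pvalb-like and 6.34, 7.77 and 9.47 CPM in D1-like cells. Stx1a was at 517, 678 and 726 CPM in layer 4/5-like (1.12 ± 0.04) and 131, 163 and 205 CPM in near-projecting-like neurons (-1.25 ± 0.05), with no overlap. In striatal interneurons it was higher in Sst or Npy-like cells, at 27.7, 35.0 and 40.7 CPM (1.62 ± 0.17). Stxbp5l was lower in cholinergic cells, at 7.41, 15.6 and 25.9 CPM (-2.23 ± 0.17), and higher in Pthlh or Pvalb-like cells, at 59.6, 109.6 and 142 CPM (1.81 ± 0.12).

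Rab3a varied less over types than Rab3b and Rab3c. Rab3b was at 573, 761 and 865 CPM in Sst-like interneurons (2.43 ± 0.07, adjusted p = 2.16e-41, edgeR), 70.7, 102 and 119 in Lamp5-like and 56.7, 79.2 and 121 CPM in Vip-like cells (-1.81 ± 0.09). Sst-like pools were above both. Among glutamatergic types it was at 139.7, 157 and 206 CPM in layer 6b-like neurons (4.05 ± 0.08) and 56.3, 77.2 and 90.0 CPM in near-projecting ones (2.68 ± 0.10). Layer 2/3-like neurons (-2.36 ± 0.18) and layer 4/5-like neurons, at 0.706, 1.02 and 2.04 CPM (-4.71 ± 0.21), were lower. In striatum Rab3b was at 367, 399 and 584 CPM in Sst or Npy-like (1.77 ± 0.09) and 45.1, 52.8 and 77.9 CPM in Pthlh or Pvalb-like cells (-2.85 ± 0.11). Eccentric cells had 169, 177 and 359 CPM (1.65 ± 0.04) and D2-like cells 29.2, 33.9 and 63.9 CPM (-1.84 ± 0.04), again without overlap. Rab3c was higher in near-projecting-like neurons (321, 430.2 and 508 CPM, 2.33 ± 0.05) and Lamp5-like cells (922, 1446 and 1708 CPM, 1.66 ± 0.05) and lower in cholinergic cells (84.0, 103 and 223 CPM, -2.10 ± 0.09).

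At the active zone, Unc13c was found in few neuron types. It was at 55.2, 91.9 and 103 CPM in Sst-like cells (adjusted p = 4.18e-34, edgeR), 0, 0.305 and 2.60 CPM in Lamp5-like cells, and 0 UMIs of 1851573 in Pvalb-like cells, where 3 UMIs would be 1.62 CPM. With 0 UMIs in a type of the reference, the fitted difference rests on the prior count, so none is given. Without the 16 sub-clusters, which held most Sst-like cells, Unc13c was not tested among these types, and its difference between all cortical interneuron-like and glutamatergic neuron-like cells turned from 1.57 to -2.05, with a call each time. Near-projecting-like neurons had 44.6, 65.9 and 95.1 CPM (6.52 ± 0.14) and layer 6 corticothalamic-like neurons 0, 0.407 and 0.615 CPM (-2.16 ± 0.40), with every near-projecting pool above every other glutamatergic one. In striatum the 3 spiny types had like levels, with medians of 103, 94.4 and 107 CPM in D1-like, D2-like and eccentric cells, and none was called. Unc13b was lower in Pthlh or Pvalb-like cells, at 0, 2.29 and 3.66 CPM (-3.36 ± 0.33), and higher in Sst or Npy-like cells, at 7.47, 22.5 and 27.2 CPM (1.65 ± 0.24).

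Rims3 was at 165, 219.8 and 253 CPM in layer 4/5-like (2.44 ± 0.06) and 91.3, 98.9 and 129 CPM in layer 2/3-like neurons (1.26 ± 0.06), against 9.64, 15.7 and 18.3 CPM in layer 6b-like ones (-2.14 ± 0.12). The first of these types was above the last in every pool. In spiny neurons it was higher in D1-like (0.73 ± 0.10) and lower in D2-like cells (-0.54 ± 0.11). Rimbp2 was at 139, 201 and 264 CPM in Lamp5-like (2.84 ± 0.08) and 6.22, 12.6 and 17.6 CPM in Vip-like cells (-2.43 ± 0.16), without overlap. It was also higher in layer 6 intratelencephalic-like neurons (106, 162 and 174 CPM, 1.503 ± 0.05) and cholinergic cells (77.8, 141 and 174 CPM, 2.19 ± 0.13). Bsn, the Bassoon scaffold, was at 308, 331 and 367 CPM in layer 6 intratelencephalic-like neurons (1.09 ± 0.04) and 59.0, 82.1 and 94.4 CPM in near-projecting-like ones (-1.44 ± 0.06), with no pool shared.

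The striatal samples also held 6474 neuroblast- or progenitor-like cells, in which release genes were mostly low. Against spiny projection neuron-like cells, 38 of 40 members were lower and 1 higher, beside 40.1% and 38.3% of all genes. The median over members was -3.51. The largest gaps were in Unc13c (-7.11 ± 0.24), Sv2b (-7.05 ± 0.31), Doc2b (-6.58 ± 0.31), Syt2 (-6.39 ± 0.35), Syt1 (-6.02 ± 0.42) and Rimbp2 (-5.89 ± 0.28). Unc13b was the higher one, at 4.12, 12.1 and 12.49 CPM against 4.02, 5.68 and 7.98 CPM (0.75 ± 0.18), though it was not called without the 16 sub-clusters (0.31 ± 0.21). The 9 neuron genes used for free RNA were at a median of 0.810% of their projection neuron level in this class, and the members at 8.33%.

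Within this class 22 members could be tested between 2429 postmitotic neuroblast-like and 2395 cycling progenitor-like cells. In the postmitotic cells 16 were higher and 2 lower, while of all genes 33.3% were higher and 33.3% lower, so the members lay on the higher side more often than other genes. The median over the 22 was 0.78. Of the genes tested, 5 of 7 SNARE genes, 5 of 6 vesicle membrane genes and both Rab3 genes were higher. The cycling side includes a sub-cluster of 359 cells, named from 6 cycling markers, whose 10 leading genes held 2 astrocyte markers (Gja1 and Aldoc) and none of its own. Without it 16 members were higher and 1 lower, beside 31.8% and 31.8% of all genes. The postmitotic side includes a sub-cluster of 1401 cells with 1 marker of another class and none of its own among its leading genes. Without both, too few pools held enough cells, and the comparison could not be fitted.

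Syt1 went from 5.26, 6.46 and 7.74 CPM in cycling to 23.7, 29.5 and 56.0 CPM in postmitotic cells (2.51 ± 0.22, adjusted p = 5.72e-12, edgeR). Syn1, which encodes synapsin I, went from 6.78, 9.90 and 12.0 to 35.8, 41.6 and 45.5 CPM (2.11 ± 0.18) and Rab3a from 25.3, 29.7 and 77.4 to 96.5, 128 and 242 CPM (2.01 ± 0.11). All postmitotic pools were above all cycling pools for each of these. Napb (1.38 ± 0.22) and Syp (1.34 ± 0.18) were higher as well. Syt4 was lower, at 62.5, 82.9 and 109 in cycling and 9.69, 25.8 and 35.4 CPM in postmitotic cells (-1.65 ± 0.15), again without overlap, although spiny projection neuron-like cells had 386, 585 and 616 CPM. Syn2 was the other lower gene (-0.65 ± 0.26), and was not called without that sub-cluster (-0.32 ± 0.28). The gap that remained to mature neurons differed by gene. For Syt1 the postmitotic median was 29.5 CPM and that of spiny projection neuron-like cells 869.5 CPM, while for Syt11 they were 599 and 707 CPM. A further cluster of 2588 cells was named from Dcx, Sox11, Igfbpl1, Cd24a, Dlx6os1 and Tubb3, which are genes of young neurons. It was left out of these counts because its 10 leading genes held none of its own markers and 1 of another class. It held 1.094% and 0.242% of the cells in replicate 1 of control and of late learning, the pools that the barcode split sets apart. In the other striatal pools it held 3.939% to 11.919%.

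**Figure D4:**
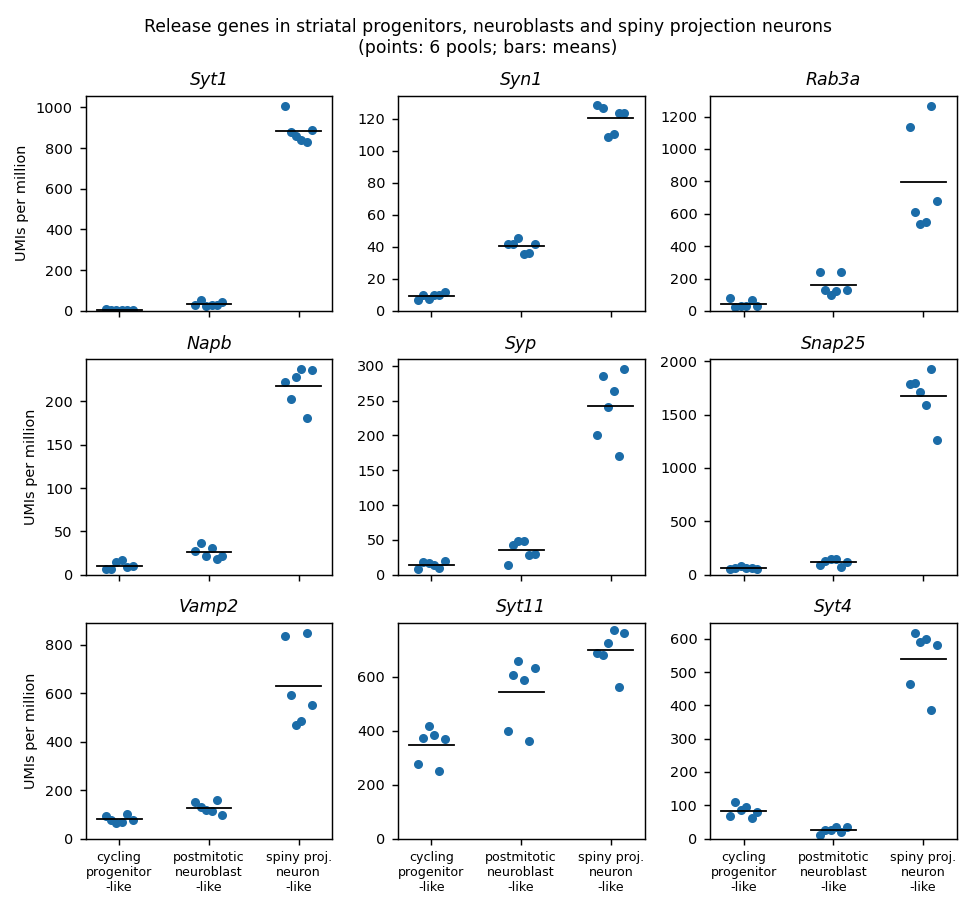
Levels of 9 release genes in cycling progenitor-like, postmitotic neuroblast-like and spiny projection neuron-like cells of dorsal striatum, in CPM, with points for 6 pools and bars for means. A reader should see all but Syt4 step up from the first to the second group, and most stay far below the third.

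Learning stage was compared last, with 2 pools a group, in a model with stage and the barcode split in place of the kit. In the projection neurons of either region no member was called in any of 3 stage comparisons by edgeR. At an unadjusted p under 0.05 the counts of 40 members were 0 for early and 2 for late learning against control and 0 between late and early in motor cortex, and 1, 1 and 6 in the same order in dorsal striatum, and DESeq2 called none. At that threshold 1.61%, 4.84% and 1.2% of all genes were counted in motor cortex and 4.18%, 5.81% and 9.44% in dorsal striatum. Log2 changes of the 40 ran from -0.32 to 0.27 with a median of -0.07 (early), and from -0.40 to 0.34 with a median of -0.11 (late) against control in motor cortex. In dorsal striatum they ran from -0.30 to 0.45 with a median of -0.05 (early) and from -0.35 to 0.57 with a median of -0.03 (late). Between late and early learning they ran from -0.52 to 0.29 with a median of -0.03 in motor cortex, and from -0.50 to 0.86 with a median of -0.06 in dorsal striatum. A difference that was not called is not shown to be absent, with 2 pools a group. The values are sums over all types of a class, and the part of shifts in the mix of types was not tested.

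**Figure D5:**
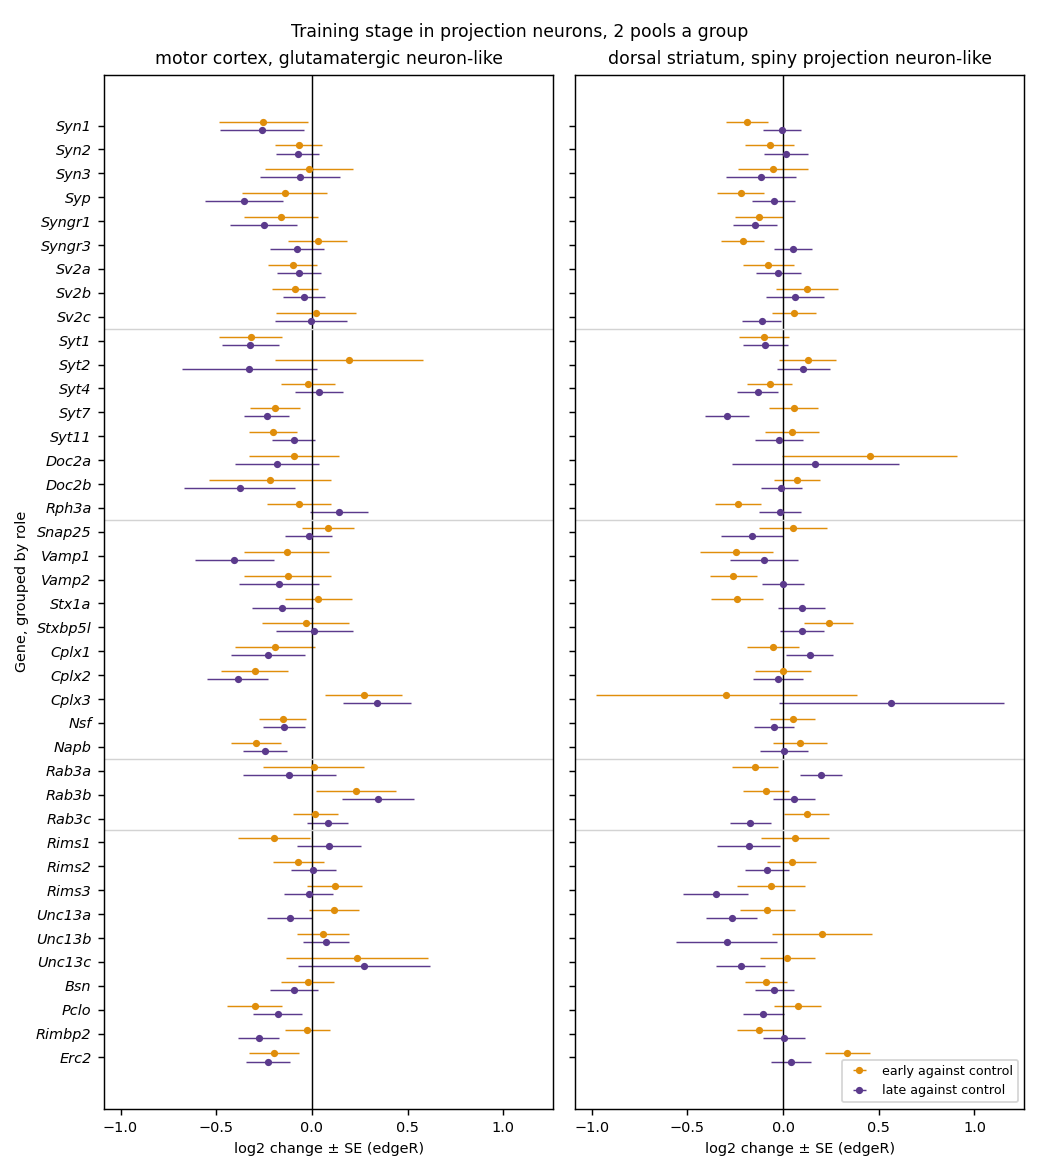
Log2 change ± standard error of each of the 40 genes in projection neurons, early and late learning against control, for both regions with 2 pools a group. A reader should see most points within 0.4 of 0, and none past the adjusted threshold.

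The smallest p-values in cortical glutamatergic neuron-like cells were for Rimbp2 and Cplx2. Rimbp2 was at 70.4 and 101 CPM in the control, 95.6 and 98.8 in the early and 57.6 and 81.2 CPM in the late pools, in replicate order. Control and late pools overlapped (late against control -0.28 ± 0.11, adjusted p = 0.850, edgeR). Cplx2 was at 654 and 604, 531 and 411 and 517 and 433 CPM, with both controls above all trained pools (-0.39 ± 0.16, adjusted p = 0.850). Syt1 was at 2165 and 2406, 2058 and 1661 and 1771 and 1825 CPM, and Napb at 559 and 659, 546 and 505 and 471 and 540 CPM. For both, the controls were again above all trained pools. How many of all genes had pools apart in this way was not counted. With 2 pools a group such an order is not read as a change. The Syt1 estimates were -0.32 ± 0.16 for early and -0.32 ± 0.15 for late learning, and those of Napb -0.29 ± 0.13 and -0.24 ± 0.12. The next members by p were Pclo (-0.30 ± 0.14, and 0.025 without the kit term) and Syt11 (-0.20 ± 0.13) for early and Erc2 (-0.23 ± 0.12) for late against control. For late against early they were Rimbp2 (-0.25 ± 0.12), Unc13a (-0.23 ± 0.13), Rims1 (0.29 ± 0.18, and -0.13 without late replicate 2), Syt2 (-0.52 ± 0.39) and Rph3a (0.21 ± 0.17).

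In spiny projection neuron-like cells, Rab3a was at 1134 and 611 CPM in the control, 535 and 548 in the early and 1267 and 679 CPM in the late pools. The pair of high values were the first replicates of control and late learning, which are the pools that the barcode split sets apart (late against early 0.34 ± 0.12, adjusted p = 0.505, edgeR). Vamp2 had the same pattern, at 836 and 593, 467 and 484 and 849 and 551 CPM. Erc2 was at 232 and 242, 304 and 317 and 216 and 259.6 CPM, with both early pools above all others (early against control 0.33 ± 0.12, adjusted p = 1.000). Syt7 was at 78.3 and 87.6, 99.0 and 88.4 and 56.1 and 76.4 CPM, with both late pools below all others (late against control -0.29 ± 0.12, adjusted p = 0.816, edgeR). Here too the share of all genes with pools apart in this way was not counted, and the order is not read as a change.

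Rab3c was at 253 and 378, 398 and 396 and 227 and 315 CPM and Stx1a at 29.3 and 27.8, 22.4 and 23.1 and 31.5 and 28.1 CPM in control, early and late pools. Late against early they differed by -0.29 ± 0.12 and 0.34 ± 0.14, and neither passed (adjusted p = 0.505 for both, edgeR). The other members with small p in early against control were Vamp2 (-0.26 ± 0.12), Rph3a (-0.24 ± 0.12), Syngr3 (-0.21 ± 0.11) and Stxbp5l (0.24 ± 0.13). In late against control they were Rims3 (-0.35 ± 0.17), Unc13a (-0.27 ± 0.13), Rab3a (0.20 ± 0.11) and Unc13c (-0.22 ± 0.13). Sequencing batch and stage cannot be fitted together, but 1 early and 1 late pool of each region share a batch, as the labels name it, with a control pool. The medians over the 40 members of these single pairs, trained minus control on log2(CPM + 1), were -0.08 (early) and -0.08 (late) in motor cortex and 0.00 and -0.13 in dorsal striatum.

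Over all classes, few members or other genes were called. In motor cortex, 204 gene and class pairs of members in 9 classes gave 0 calls for early against control (24 at p under 0.05), 1 for late against control (41) and 0 for late against early (7). The shares called over all genes were 0.0306%, 0.0392% and 0.0208%, and those at p under 0.05 were 3.6%, 4.4% and 2.5%. In dorsal striatum 289 pairs in 13 classes gave 0 (33), 0 (48) and 1 (28), beside 0.029%, 0.0196% and 0.0205% called and 5.29%, 5.61% and 6.36% at p under 0.05. DESeq2 called no member in any of these. The members' counts at p under 0.05 were above the share of all genes in each of these 6 comparisons, most of all in late against control. The part of free RNA, which differed between pools in striatal astrocyte-like cells, was not tested.

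The cortical call was Rab3a in fibroblast-like cells, at 354 and 459 CPM in the control, 113 and 235 in the early and 90.7 and 69.1 CPM in the late pools (late against control -2.18 ± 0.44, adjusted p = 0.0489, edgeR). These rest on 18 and 57, 15 and 28 and 21 and 8 UMIs, and the late pools were below all others. The call was lost without control replicate 2 and without late replicate 2, under DESeq2 and under several other settings. The control and the late pools are each divided between the 2 barcode sets. With 1 of them left out, late against control therefore rests on 1 late and 1 control pool. Counts of calls in such runs are not set against the main count. The striatal call was Snap25 in macrophage-like cells, at 316 and 49.6, 324 and 295 and 131 and 59.3 CPM (late against early -2.85 ± 0.48, adjusted p = 0.0398). Its UMIs were 30 and 5, 37 and 35 and 16 and 8, and the 2 controls lay far apart, 1 near the early pools and 1 below all others. Snap25 is a neuronal gene and the part of free RNA was not tested. In the striatum late against control has the same limit when a control or late pool is left out. No call that arose there with 1 pool left out was in neurons. In interneuron-like cells the main settings gave no stage call, but Syt2 was called in late against early in motor cortex with no filter on low counts, and leaving out 1 pool gave a call of Vamp2 or Syt2 in motor cortex and of Sv2c in striatum.

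Hemispheres of the trained pools were compared with the pool as a block, contralateral against ipsilateral as the labels name them. In motor cortex 1 of 152 member pairs was called (18 at p under 0.05), beside 0.0603% called and 5.02% at p under 0.05 over all genes, and in striatum 0 of 193 (11 at p under 0.05), beside 0.0218% and 3.67%, with no call by DESeq2. The call was Rab3b in interneuron-like cells, contralateral and ipsilateral at 278 and 208 CPM in early replicate 1, 185 and 178 in early replicate 2, 318 and 249 in late replicate 1 and 185 and 157 in late replicate 2. It was higher on the contralateral side in 4 of 4 pools (0.29 ± 0.06, adjusted p = 0.0469, edgeR), and the call was lost without early replicate 1 and without late replicate 1. These are sums over interneuron types that differ widely in Rab3b. The part of the mix of types in each hemisphere was not tested. Stage changes were also compared between regions in 8 shared classes. None of 194 member pairs was called for early (18 at p under 0.05) or late learning (58), beside 0.00284% of all pairs called in each and 5.35% (early) and 4.51% (late) at p under 0.05, and DESeq2 called none. Without dorsal striatum late replicate 2 the late count was 18, again in classes other than neurons.

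Genes of neighbouring steps were counted from 2 lists, 43 other release genes and 29 vesicle recycling genes. In cortical astrocyte-like cells 33 of 39 other release genes were lower and 4 higher, and 22 of 28 recycling genes lower and 4 higher, beside 43.3% and 33.8% of all genes. In layer 6b-like neurons, where 26 of 40 members were higher, 23 of 40 other release genes were higher and 10 lower, and 20 of 28 recycling genes were higher and 2 lower (29.9% and 26% of all genes). In Vip-like cells, where 24 of 39 members were lower, 10 of 37 other release genes were lower and 8 higher, and 8 of 27 recycling genes lower and 5 higher. These shares were nearer than the members' to the 19.1% lower and 21.4% higher of all genes. In layer 6 corticothalamic-like neurons 18 of 40 other release genes were higher and 10 lower, and 21 of 28 recycling genes were higher and 1 lower, beside 19 and 19 of 40 members and 29.9% and 21.5% of all genes. In postmitotic neuroblast-like cells 15 of 25 other release genes were higher and 4 lower, and 13 of 23 recycling genes were higher and 3 lower (33.3% each way over all genes). Neither list had a call in any stage, hemisphere or region comparison.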

How the data were processed

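The deposited matrices hold UMI counts per gene and cell barcode. The authors made them with Cell Ranger 3.1.0 on GRCm38 (mm10), per the submitters' processing notes, while the file headers give software version 3.0.2. The counts were not normalized. The annotation that matched the gene identifiers was GENCODE M21.

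Barcodes with under 500 genes, under 1000 UMIs or over 20% mitochondrial UMIs were left out, and likely doublets were removed by a score against simulated doublets at 0.8% per 1000 barcodes. Cells were clustered per region by the Leiden method (leidenalg 0.10.2, Python 3.11.15) at resolution 1.5 and, within neurons and neuroblasts, at resolution 1, without the 40 members and without the stage. Clusters with more markers of another class than of their own among their 10 leading genes were left out (a cortical committed oligodendrocyte precursor cluster of 0.712% to 2.695% of a pool's cells, a cortical endothelial cluster of 0.063% to 0.289% and the striatal neuroblast or progenitor cluster given above), as were sub-clusters with 3 or more markers of other classes there. UMIs were summed per pool and class where a pool had at least 20 cells, and types had to be present in at least 3 pools.

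Sums were tested with edgeR 4.0.16 (R 4.3.3, limma 3.58.1), TMM factors and a filter on low counts. Class and type tests had the pool as a block, stage tests had stage and the barcode split as terms, and the region by stage term was tested over all 12 pools. Scripts were tested on simulated data. For late against control in projection neurons, 14 of 106 calls in motor cortex and 16 of 136 in striatum were of unchanged genes. Of simulated 1.5-fold changes, 17.9% and 26.9% were recovered there. Alternatives were RLE factors, no filter, DESeq2 1.42.0, a stricter filter on cells (1000 genes, 2000 UMIs, 10% mitochondrial), no kit term, doublets kept, at least 50 cells, the 8 pools of the second barcode set only (class comparisons), and each pool left out in turn. A further alternative, chosen after seeing the data, left out named sub-clusters with 2 or more markers of 1 other class, and more than of their own, among their 10 leading genes. These were 4 striatal ones, of D1-like (1654 cells), eccentric (712), Sst or Npy-like (250) and cycling progenitor-like cells (359). The last one, also chosen after seeing the data, left out all 16 named sub-clusters, 9 cortical and 7 striatal, with more markers of 1 other class than of their own there.

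The labels give no statement on whether the 2 pools of a group are separate experiments, so p-values of stage and region by stage tests measure the spread between these pools. Those of class, type and hemisphere tests, with the pool as a block, measure how evenly a difference held over the pools. A fold against a class with 0 UMIs is a bound from 3 UMIs over the class and covers counting error only. Per comparison, the named genes are the 6 called members with the largest change in which every pool moved the same way. In stage, hemisphere and region comparisons they are every called member and the 5 smallest p in projection neurons, and in neuron types the complexins, Syt1, Syt2, Vamp1, Vamp2 and the SV2 genes. Other members named, such as those that were higher in glia, were chosen after their values were seen. The members and lists were chosen with earlier results of these data known.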

Additional observations from a re-analysis of the deposited data

How the results depend on the processing

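Few of the named class and type differences changed. Counted here are the 6 called members per comparison with the largest change in which every pool moved the same way. That they held was thus partly set by how they were chosen. Genes named from a list in neuron types were counted only where they were among these. Of 2114 recomputed values of the 168 named class and type differences, 2086 kept direction and call, 28 kept the direction without the call, mostly Sv2c and Unc13b in oligodendrocyte-like cells, and 0 reversed. Without the 4 striatal sub-clusters led by markers of another class, of 481 striatal class and type values 374 were called in the same direction, 28 lost the call, 17 gained it and 1 turned, Rims2 in eccentric cells (0.11 and -0.19). Without all 16 sub-clusters with more markers of another class than of their own, of 1031 values in both regions 801 were called in the same direction, 59 lost the call, 28 gained it and 3 turned. The latter were Rims2 again (-0.21), Cplx2 in Lamp5-like cells (0.44 and -0.68) and Unc13c in cortical interneuron-like cells (1.57 and -2.05). A further 39 values, 30 of them called in the main fits, could not be recomputed. The comparison of postmitotic with cycling cells could not be fitted in that case. Counts of called members in the stage, hemisphere and region comparisons moved. Late against control in motor cortex gave 1 call, 8 with no filter on low counts, and 0 with RLE factors, DESeq2, the stricter cell filter, no kit term or doublets kept. With at least 50 cells it gave 0, but fibroblast-like cells, which held the call, were not tested there (26 cells in the smallest pool). Late against early in motor cortex gave 0, and 1 with no filter (Syt2 in interneuron-like cells). Contralateral against ipsilateral motor cortex gave 1, 6 with no filter, and 0 with DESeq2 or the stricter filter. In dorsal striatum, early against control gave 0, 7 with no filter and 1 with doublets kept, and late against control gave 0 and 11 with no filter. Late against early gave 1, and 0 with DESeq2, the stricter filter or no kit term. With at least 50 cells it gave 0, but macrophage-like cells, which held the call, were not tested there (33 cells in the smallest pool). The late difference between regions gave 0, and 13 with no filter. The cause was not tested.

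With each pool left out in turn, no projection neuron call arose in any stage comparison. In interneuron-like cells late against control in motor cortex gave 1 call each without control replicate 1 or late replicate 1 (Vamp2) and without control replicate 2 or late replicate 2 (Syt2), late against early 1 without late replicate 2 (Syt2), and late against early in striatum 1 without early replicate 2 (Sv2c). Between hemispheres Cplx3 was called in glutamatergic neuron-like cells with no filter, without early replicate 2 and without late replicate 2. Each stage fit with a pool left out has 1 pool in 1 of its groups. Without a control or late pool, the barcode term also reduces late against control to 1 pool on each side. The counts of calls below are therefore listed only and not set against those of the main fits. Early against control in motor cortex gave 0 to 3, late against control 3 to 10, late against early 0 to 1 and the hemispheres 0 to 3. In dorsal striatum they gave 0 to 4, 1 to 14 and 1 to 8. The difference between regions gave 0 to 1 for early and 0 to 18 for late learning. Of single values in glutamatergic neuron-like cells, Pclo in early against control was -0.30 and 0.025 without the kit term, and Rims1 in late against early was 0.29, ran from -0.13 to 0.42 with a pool left out and was -0.13 without motor cortex late replicate 2. No paired analysis was possible because the labels number no replicates, and the batch they name gives only 1 pair of pools for early and 1 for late learning against control in a region, which leaves no residual degrees of freedom. The values of these pairs stand with the stage results. Class and hemisphere comparisons had the pool as a block throughout. Depth limits types of few cells, such as Pvalb-like cells, and genes near 0 UMIs.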
